A study of Mus musculus with 2 samples.

Results

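Cell cycle and DNA replication genes are the genes that let a progenitor cell commit to division, copy its DNA and separate the copies. The set described here was a list of 43 mouse genes chosen by name, with cyclins, cyclin-dependent kinases, replication factors and mitotic proteins, and all 43 were found among the 45578 genes of the count table. Ribosome-protected fragments were measured by RiboLace, a pull-down in which beads with a puromycin analogue capture ribosomes engaged in translation, followed by sequencing of the RNA pieces those ribosomes shielded from a nuclease (size selected at 25 to 35 nucleotides). The material was brain at postnatal day 5 from control mice of genotype Smn+/-; SMN2tg/0 on a congenic FVB background, that is, mice with 1 working copy of mouse Smn and the human SMN2 transgene, in 2 biological replicates of 1 group. Both libraries carry the heterozygous Smn allele and the transgene, so neither is wild type. The labels do not say whether the replicates came from separate brains. The p-values here set the split of counts between these libraries against counting error alone, with no term for variation between replicates.

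In a dividing cell, D-type cyclins with Cdk4 or Cdk6 open the way out of G1, and cyclin E with Cdk2 starts S phase. Minichromosome maintenance (MCM) proteins are loaded on DNA before S phase and unwind it at the replication fork, where polymerases and the sliding clamp PCNA copy it. Cyclins A and B with Cdk1 then drive G2 and mitosis, in which condensins compact the chromosomes. In the first postnatal days of a mouse, most brain neurons have left the cycle, while granule cell precursors of the cerebellum, glial precursors and the stem cells of the ventricle wall still divide.

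For each gene the isoform with most counts over both libraries stood for the gene. Gene counts came to 343552 in replicate 1 and 120282 in replicate 2, so that 1 count was worth 2.71 CPM (counts scaled to a common library size) in replicate 1 and 8.93 CPM in replicate 2. Counts of the cell cycle genes were low. A mean of at least 10 counts over the libraries, the filter for a test of a single gene, was reached by 12 of the 43, or 27.9%, against 20.1% of the 21874 protein-coding genes. The 12 had sums of 20 to 49 counts, and the other 31 had sums of 0 to 16 with a median of 7. Just inside the filter stood Top2a with a sum of 20, and just outside it Mcm3 with 16. A count in each library was seen for 36 of the 43 genes.

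Only Aurkb, the kinase of the chromosomal passenger complex, had 0 counts in both libraries, which allows a share of up to 0.000873% of gene counts in replicate 1 and 0.00249% in replicate 2. Ccnb2, Cdk2, Gmnn, Pole and Smc2 had 0 counts in replicate 2 and between 1 and 6 in replicate 1. Cdc20, the activator of the anaphase-promoting complex, had 0 counts in replicate 1 and 2 in replicate 2. At this depth none of these zeros shows that a gene was not translated.

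**Figure D1:**
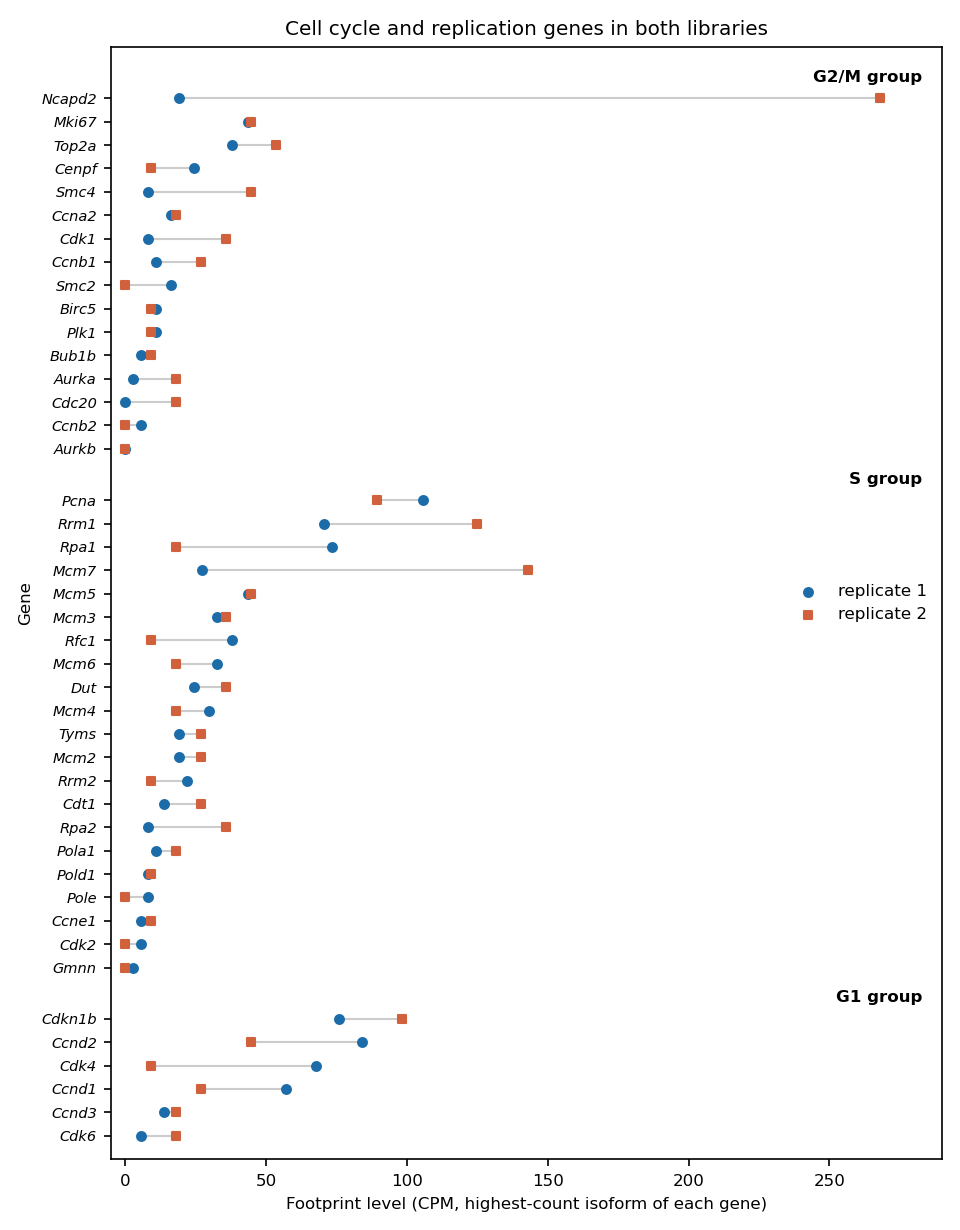
Footprint level of each of the 43 genes in CPM on a linear axis, by phase group, with a circle for replicate 1 and a square for replicate 2 joined by a line. Ncapd2 at 268 CPM and Mcm7 at 143 CPM in replicate 2 are the highest points of their groups; both genes are represented by a retained-intron isoform.

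Among the G1 genes, Cdkn1b, which encodes the cyclin-dependent kinase inhibitor p27 that holds cells out of the cycle, carried the most fragments for its length. Cdkn1b had 28 counts in the first replicate and 11 in the second, which is 146.6 CPM per kilobase of coding sequence ± 26.6 (SD, n = 2). This level was above 94.8% of the 20757 protein-coding genes with a coding length. The libraries gave 75.9 and 98.2 CPM, a log2 ratio of replicate 2 over replicate 1 of 0.37 (counting SE 0.51). Its 2 isoforms share a coding sequence of 594 nucleotides and differ in the 3' untranslated region, of 1280 nucleotides in Cdkn1b-002 and 3439 in Cdkn1b-001. The longer isoform held 28 and 10 counts, no more than the shorter one with 28 and 11. How fragments shared by isoforms were counted is not known, so these totals do not show how many fell in the additional 3' untranslated sequence.

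Of the D-type cyclins, which bind Cdk4 and Cdk6 and answer to growth signals, Ccnd2 had 31 and 5 counts, Ccnd1 had 21 and 3, and Ccnd3 had 5 and 2. Their densities were 73.9 CPM per kilobase ± 32.0, 47.1 ± 24.0 and 17.9 ± 3.47 (each SD, n = 2). This order held in each library. In replicate 2, however, the densities of 51.3, 30.2 and 20.3 CPM per kilobase came from only 5, 3 and 2 counts. An SD of 2 libraries does not measure counting error, and differences between these genes were not tested. Ccnd2 was lower in replicate 2 by a log2 ratio of -0.90 (SE 0.68) and Ccnd1 by -1.06 (SE 0.86), neither past the threshold (adjusted exact binomial p = 0.881 and 0.927). The kinase gene Cdk4 was counted 25 times in replicate 1 and 1 time in replicate 2, or 67.8 and 8.93 CPM. Its unadjusted exact binomial p was 0.0177 and its adjusted p 0.280 over all genes tested. Its density of 42.0 CPM per kilobase ± 45.6 (SD, n = 2) therefore rests on replicate 1. Cdk6, the other G1 kinase, had 2 counts in each library on a transcript whose 3' untranslated region of 10217 nucleotides exceeds its coding sequence of 981 nucleotides.

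Among the S-phase genes, Pcna, the sliding clamp, had the highest count of all 43 genes, with 39 in replicate 1 and 10 in replicate 2. Pcna stood at 105.7 and 89.3 CPM, a log2 ratio of -0.24 (SE 0.51), and at 124.0 CPM per kilobase ± 14.8 (SD, n = 2), above 93.8% of coding genes. Its level is uncertain, because Pcna-ps2, a gene with a coding sequence of the same length, 786 nucleotides, had 25 and 10 counts. How fragments common to both genes were counted is not known. No count fell on Pcna-ps1, Ccnb2-ps or Ccnd3-ps, the other genes named as pseudogenes of a member.

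The genes for nucleotide supply followed. Rrm1, the large subunit of ribonucleotide reductase, had 26 and 14 counts, or 41.1 CPM per kilobase ± 16.2 (SD, n = 2), and a log2 ratio of 0.82 with SE 0.47 (adjusted exact binomial p = 0.689). Rrm2, the small subunit of that enzyme, had 8 and 1 counts. Tyms, thymidylate synthase, had 7 and 3 counts, and Dut, which clears dUTP, had 9 and 4. All 4 genes of this role lay above the median density of coding genes, 5.09 CPM per kilobase.

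The MCM subunits act as a ring of 6 different proteins. Counts on coding isoforms were 7 and 3 for Mcm2, 12 and 4 for Mcm3, 11 and 2 for Mcm4, 16 and 5 for Mcm5, 12 and 2 for Mcm6, and 12 and 5 for Mcm7 (isoform Mcm7-001). Per coding length, Mcm5 had the highest mean, 20.0 CPM per kilobase ± 0.413 (SD, n = 2), and Mcm2 the lowest, 8.43 ± 2.04. The small SD of Mcm5 does not measure counting error, since its log2 ratio of 0.04 had an SE of 0.72. In replicate 2 alone, Mcm4 (6.90) and Mcm6 (7.49) stood below Mcm2 (9.87), so the order of the means did not hold in each library. The means of the other subunits lay between those of Mcm5 and Mcm2, and all 6 means were above the median of coding genes. Cdt1, the loader of the MCM ring, had 5 and 3 counts, and Gmnn, whose product geminin blocks Cdt1, had 1 and 0.

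The other fork proteins spanned a wide range. Rpa1, the large subunit of the single-strand binding protein RPA, had 27 counts in replicate 1 and 2 in replicate 2, with an unadjusted exact binomial p of 0.0448 and an adjusted p of 0.481. Its partner Rpa2 had 3 and 4 counts, so the order of these subunits differed between the libraries. Rfc1, of the complex that loads PCNA, had 14 and 1 counts. The catalytic polymerase subunits were lowest, with 4 and 2 counts for Pola1, 3 and 1 for Pold1 and 3 and 0 for Pole, although their coding sequences are long (4398, 3318 and 6852 nucleotides). Their densities of 3.26, 2.57 and 0.593 CPM per kilobase fell below the median of coding genes. Ccne1, cyclin E1, had 2 and 1 counts, and its partner Cdk2 had 2 and 0.

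Among the G2 and mitosis genes, Top2a and Mki67 were the members with the most counts on a coding isoform. Top2a, the topoisomerase that untangles sister chromatids, had 14 and 6 counts (9.98 CPM per kilobase ± 2.41, SD, n = 2). Mki67, which encodes the proliferation antigen Ki-67, had 16 and 5 counts over a coding sequence of 9534 nucleotides (4.62 ± 0.0956, SD, n = 2). Levels of both agreed between libraries within counting error, with log2 ratios of 0.49 (SE 0.69) and 0.04 (SE 0.72). Cdk1, the mitotic kinase, had 3 and 4 counts, Ccnb1 (cyclin B1) had 4 and 3, and Ccna2 (cyclin A2) had 6 and 2 on its highest isoform. Cenpf, a kinetochore protein of 8994 coding nucleotides, had 9 and 1 counts. Plk1, Bub1b, Aurka and Birc5, kinases and a passenger protein of mitosis, had sums of 3 to 5 counts. Birc5, which encodes survivin, had 4 and 1 counts. The condensin subunits Smc2 and Smc4 had 6 and 0 and 3 and 5 counts.

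For several genes the density depended on the isoform that stood for the gene. The highest-count isoform of Ccna2 was Ccna2-004, marked as a target of nonsense-mediated decay with 462 coding nucleotides, and gave 36.9 CPM per kilobase, while the full-length coding isoform of 1269 nucleotides gave 10.2 from 6 and 1 counts. From the highest-count to the longest coding isoform, Cdc20 went from 15.1 to 3.05 CPM per kilobase, Rrm2 from 22.7 to 9.82 and Dut from 61.5 to 29.0. Birc5 went from 27.0 to 6.56, with coding sequences of 366 and 423 nucleotides but 4 and 1 counts on the first isoform and 2 and 0 on the other. On the longest coding isoform, 32 of the 43 genes lay above the median of coding genes, 4.11 CPM per kilobase, and 11 above the upper quartile of 20.95.

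Median density was 44.6 CPM per kilobase over the 6 G1 genes, 11.3 over the 20 S genes with a coding length and 6.84 over 15 such G2/M genes. In replicate 1 alone the medians were 69.2, 11.3 and 4.55, and in replicate 2 alone 25.2, 9.55 and 11.6. Per coding length, G1 was thus highest in each library, while the order of S and G2/M turned around between them. On the longest coding isoform the medians were 45.7, 9.82 and 5.17, and the ranges overlapped widely, from 12.2 to 150.2 in G1, 0.607 to 127.1 in S and 0 to 25.2 in G2/M. By role, the medians on the longest coding isoform were 43.03 for the D-type cyclins with their kinases, 27.2 for nucleotide supply, 12.5 for the mitotic and A cyclins with Cdk1, 10.9 for licensing, 7.07 for the fork, 6.81 for chromosome structure, 4.33 for the start of S phase and 3.05 for mitotic kinases and checkpoint genes. Counts are for whole transcripts, so fragments in untranslated regions raise the density per coding length of genes with short coding sequences. Per whole transcript length, on the highest-count isoform, the medians were 10.7 in G1, 7.23 in S and 4.94 in G2/M. G1 was still highest, by a narrower margin. These are descriptions without a test, since genes are not replicates. In whole brain, fewer dividing cells and fewer fragments per dividing cell cannot be told apart.

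**Figure D2:**
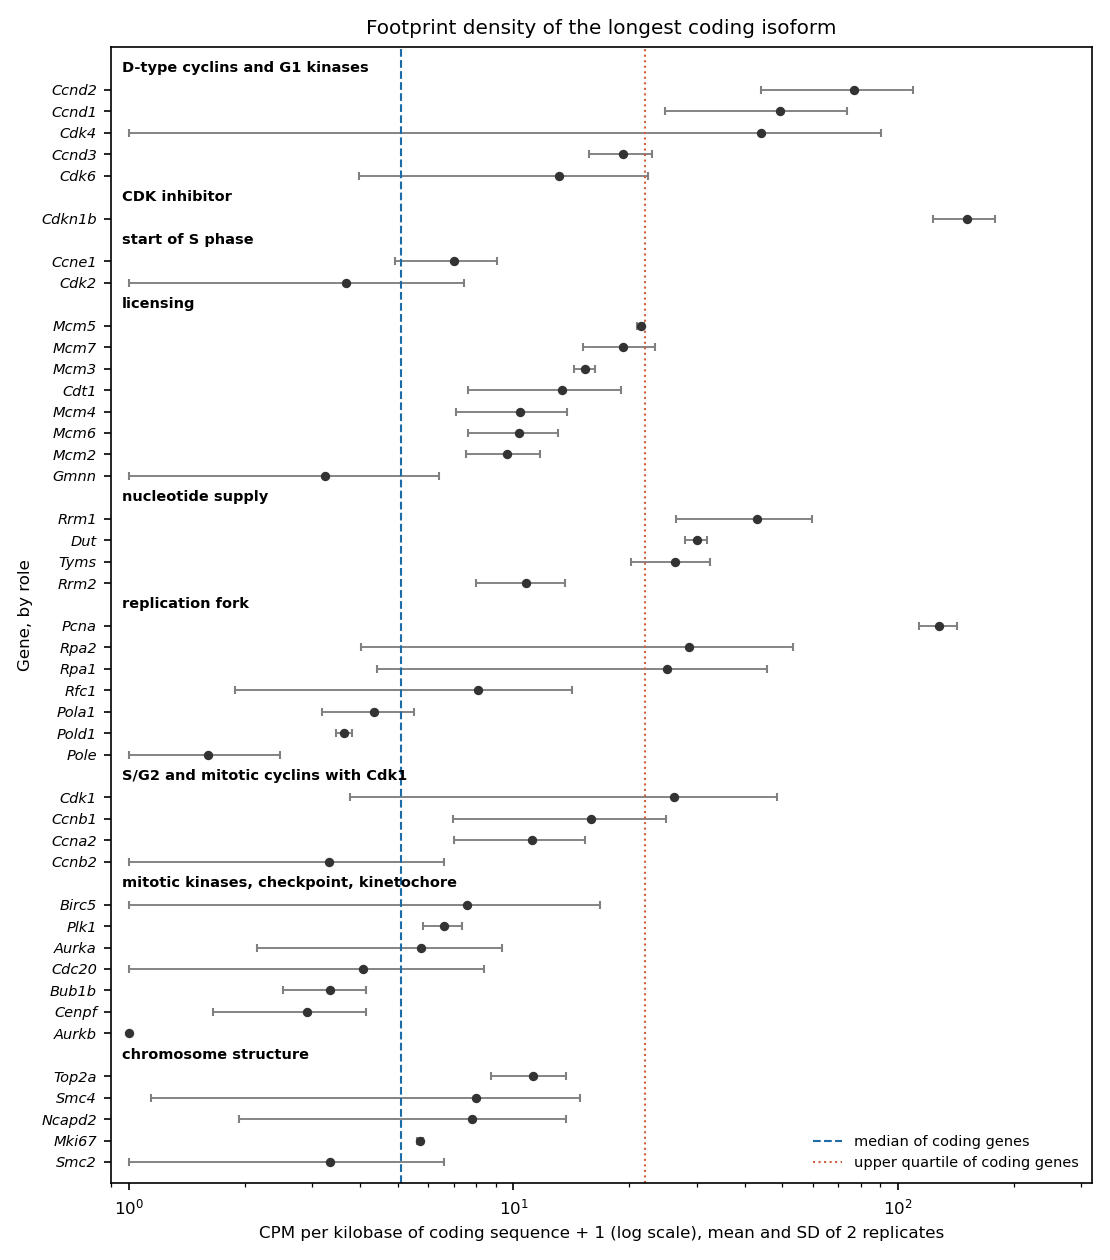
Footprint density of the longest coding isoform of each gene, in CPM per kilobase of coding sequence plus 1 on a log axis, as mean and SD of 2 replicates (bars stop at 0), grouped by role, with the median (dashed) and upper quartile (dotted) of coding genes. Cdkn1b and Pcna stand highest at 150.2 and 127.1, and the mitotic kinases and checkpoint genes lie between 0 and 6.56.

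The replicate libraries were compared gene by gene with an exact binomial test, adjusted by Benjamini-Hochberg over the 5436 genes past the filter. It compares the reads of these libraries, not conditions. It called 2 of the 12 cell cycle genes tested, Ncapd2 and Mcm7, both higher in replicate 2. Of all genes tested 4.14% were called, 3.99% higher in replicate 2. At an unadjusted p under 0.05 there were 4, with Cdk4 and Rpa1 lower in replicate 2, against 9.6% of all genes. Among protein-coding genes alone 0.956% were called. The median log2 ratio was 0.04 for the 12 and 0.00 for all genes tested.

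Ncapd2 encodes a condensin subunit. It was represented by Ncapd2-004, a retained-intron isoform of 682 nucleotides without a coding sequence, with 7 counts in the first library and 30 in the second. That is 19.0 and 268 CPM, a log2 ratio of 3.75 with SE 0.58 (adjusted exact binomial p = 1.53e-11). The coding isoform Ncapd2-001, with 4179 of its 4629 nucleotides coding, had only 4 and 5 counts. In the RefSeq annotation the gene for the small Cajal body RNA Scarna10, a guide for modification of spliceosomal RNA, lies within the span of Ncapd2. Scarna10 had 9 and 34 counts, and its log2 ratio was 3.58 with SE 0.52 (adjusted exact binomial p = 1.59e-12). The retained-intron isoform and Scarna10 thus had nearly the same counts in each library, and the coding isoform had fewer in each. The log2 ratio of the coding isoform was 1.95 (SE 0.91, unadjusted exact binomial p = 0.0367). At so few counts it cannot be told apart from the other 2 ratios.

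Mcm7 showed a like pattern. Its representative, the retained-intron isoform Mcm7-010 of 986 nucleotides, had 10 counts in the first library and 16 in the second, or 27.1 and 142.9 CPM. Its log2 ratio was 2.36 with SE 0.57 (adjusted exact binomial p = 0.00120). The coding isoform Mcm7-001, with 2160 coding nucleotides, had 12 and 5 counts, a log2 ratio of 0.45 (SE 0.75, unadjusted exact binomial p = 0.567). Within the span of Mcm7, on the same strand, lie the microRNA genes Mir106b, Mir93 and Mir25, which are known to be processed from an intron of the Mcm7 transcript. Mir106b had 3 and 5 counts, Mir93 had 4 and 13, and Mir25 had 2 and 4, together 9 in replicate 1 and 22 in replicate 2. All 3 were higher in replicate 2 in counts, although replicate 1 held 2.86 times the gene counts.

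Smc4, a condensin gene like Ncapd2, has microRNA genes in its span, Mir15b with 0 and 4 counts and Mir16-2 with 6 and 13. Its representative was the coding isoform Smc4-001, with 3 and 5 counts (log2 ratio 2.32, SE 0.97), too few for the filter. Counts of Mir16-2 can include fragments of other genomic copies of the same mature sequence. The table gives no position of a fragment within a transcript, so whether the isoform counts of Mcm7 and Ncapd2 are fragments of these small RNAs was not tested.

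The mature sequences of these hosted microRNAs show how the clusters relate. They are RefSeq sequences on GRCm38.p6, written 5' to 3', with the seed (bases 2 to 8) in capitals. The first 3 arise from chromosome 5, minus strand, within the span of Mcm7, and the others from chromosome 3, plus strand, within that of Smc4.
miR-106b-5p (chr5:138165787-138165807): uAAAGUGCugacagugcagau
miR-93-5p (chr5:138165574-138165596): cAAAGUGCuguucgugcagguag
miR-25-3p (chr5:138165332-138165353): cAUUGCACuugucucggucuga
miR-15b-5p (chr3:69009775-69009796): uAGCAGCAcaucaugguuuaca
miR-16-5p (chr3:69009918-69009939): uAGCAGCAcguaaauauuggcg
miR-106b-5p and miR-93-5p share the seed AAAGUGC, miR-15b-5p and miR-16-5p share AGCAGCA, and miR-25-3p has the seed AUUGCAC of its own. These mature forms are 21 to 23 nucleotides long, below the 25 to 35 nucleotides of the size selection, while the hairpin genes of the table measure 64 to 95 nucleotides. The deposited counts do not tell mature from precursor.

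**Figure D3:**
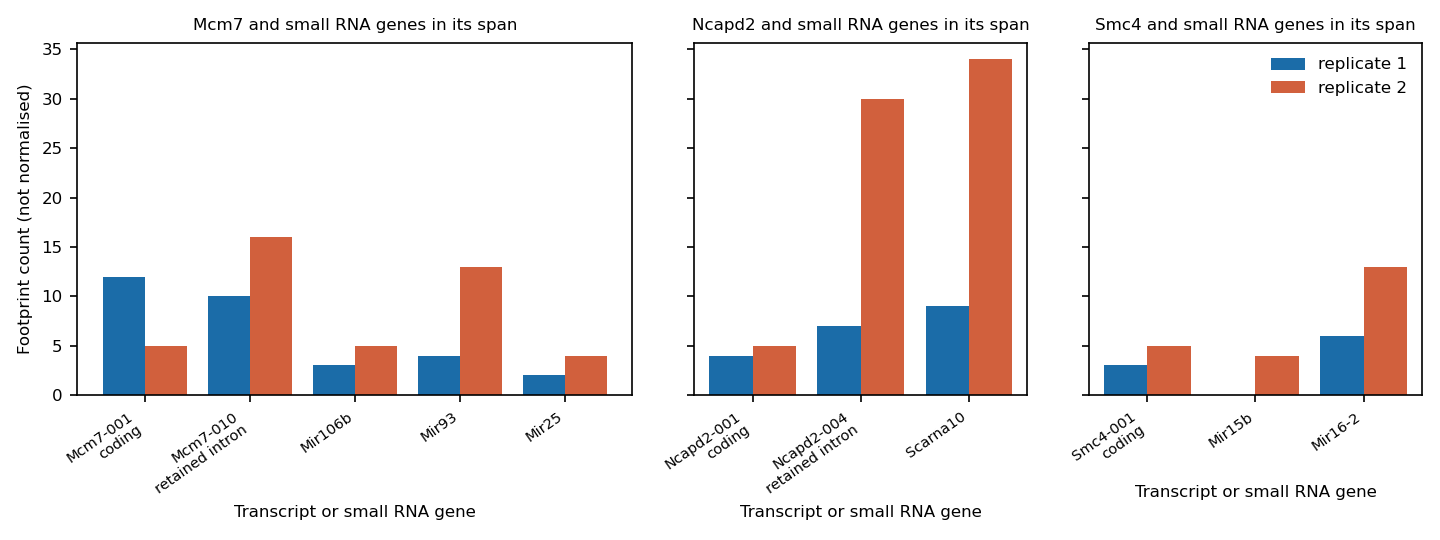
Footprint counts (not normalised) of a coding isoform, the retained-intron isoform where it represents the gene, and the small RNA genes within the span of Mcm7, Ncapd2 and Smc4, with paired bars for replicates 1 and 2. Ncapd2-004 (7 and 30) lies close to Scarna10 (9 and 34), and the coding isoforms Mcm7-001 and Ncapd2-001 had 12 and 5 and 4 and 5 counts.

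With every gene represented by its coding isoform of highest count, a choice made after the table was seen, none of the 10 cell cycle genes then past the filter was called by the exact binomial test, against 4.08% of all genes tested, and Cdk4 and Rpa1 were the 2 with an unadjusted p under 0.05. On the longest coding isoform the count was again 0 of 10, against 4.16%. Mcm7 and Ncapd2 no longer reached the filter. On its coding isoform Ncapd2 had a log2 ratio of 1.95 (SE 0.91, unadjusted exact binomial p = 0.0367). Across the table, an isoform without coding sequence represented 98 of the 4392 protein-coding genes tested. Of these 5 were called, or 5.1%, all 5 higher in replicate 2, and Mcm7 and Ncapd2 were 2 of the 5. Of the 4294 genes represented by an isoform with coding sequence 0.862% were called.

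Pooled by phase, the 6 G1 genes summed to 112 counts in the first library and 24 in the second, the 21 S genes 221 and 78, and the 16 G2/M genes 81 and 63. As a share of gene counts, with 95% Wilson intervals, the G1 group took 0.0326% (0.0271 to 0.0392) and 0.01995% (0.0134 to 0.0297), with overlapping intervals. The S group held 0.0643% (0.0564 to 0.0734) and 0.0648% (0.0520 to 0.0809), the closest agreement of the 3. The G2/M group held 0.0236% (0.0190 to 0.0293) and 0.0524% (0.0409 to 0.0670), intervals that did not overlap. Within G1, the D-type cyclins with Cdk4 and Cdk6 held 0.0245% (0.0198 to 0.0303) and 0.0108% (0.00632 to 0.0185), apart and lower in replicate 2. The log2 ratio of their pooled counts was -0.97 (SE 0.43). Of the 84 and 13 counts of these genes, Cdk4 gave 25 and 1. Their shares without Cdk4 were not computed, so whether the intervals are apart without it was not tested. Cdkn1b alone held 0.00815% and 0.00914%. No interval here allows for copies made by PCR, which carried no molecular identifiers, so each covers counting error alone.

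Part of the gap in G2/M came from Ncapd2, which gave 7 of the 81 counts in replicate 1 and 30 of the 63 in replicate 2. The log2 ratio of the pooled G2/M counts was 1.36 (SE 0.24), and without Ncapd2 it was 0.56 (SE 0.30), from 74 and 33 counts. The shares then were 0.0215% (0.0172 to 0.0270) and 0.0274% (0.0195 to 0.0385), with overlapping intervals. Leaving out a gene called higher in replicate 2 lowers the ratio in any case. The other G2/M genes together were still higher in replicate 2, and overlap does not show that their shares were equal. On coding isoforms the G2/M log2 ratio was 0.61 (SE 0.29), that of S -0.01 (SE 0.20) and that of G1 -0.50 (SE 0.33). All 43 genes together held 0.120% of gene counts in replicate 1 (0.109 to 0.133) and 0.137% in replicate 2 (0.118 to 0.160). On coding isoforms these shares were 0.121% (0.110 to 0.133) and 0.106% (0.0894 to 0.126). The pooled log2 ratio of all 43 was 0.39 (SE 0.13), and on coding isoforms 0.02 (SE 0.15). On the highest-count isoform without Mcm7 and Ncapd2 it was -0.02 (SE 0.15). Shares are of raw gene counts, while the ratios use the effective library sizes behind CPM. A ratio is therefore not the quotient of the 2 shares, and their directions can differ.

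**Figure D4:**
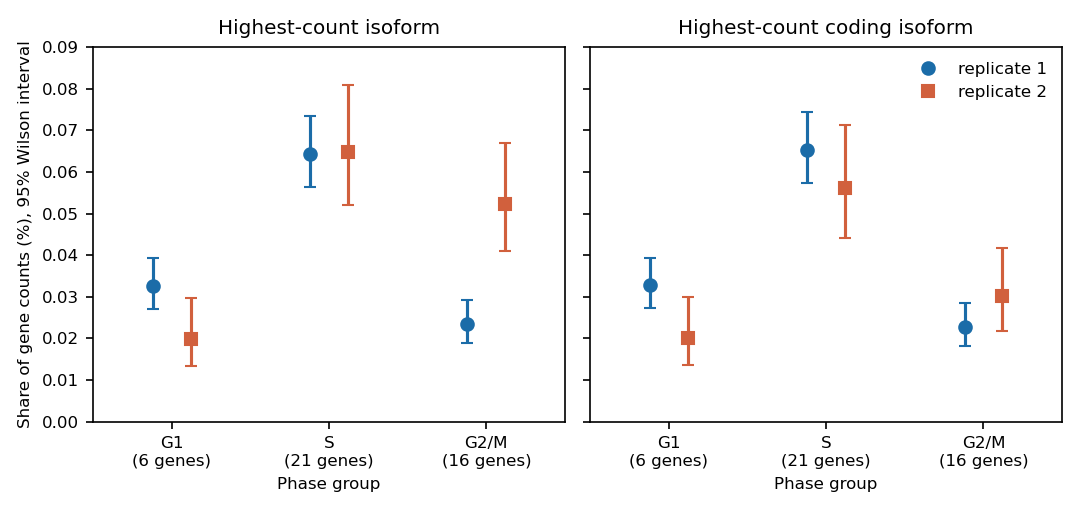
Share of gene counts held by each phase group, in percent with 95% Wilson intervals, for replicate 1 (circles) and replicate 2 (squares), on the highest-count isoform (left) and the highest-count coding isoform (right). The G2/M intervals are apart on the left (0.0236% and 0.0524%) and overlap on the right (0.0228% and 0.0301%).

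Other genes of the cycle were read from 3 further lists. Of 51 further replication genes 6 passed the filter, of 35 further cell cycle regulators 5 and of 60 genes of mitosis and cohesion 18, and the exact binomial test called none of these 29 in either direction, against 4.14% of all genes and 0.956% of protein-coding genes tested, so that few or no calls among 29 would match the background. At an unadjusted exact binomial p under 0.05 there were 1 (Rpa3), 0 and 2 (Bub3 and Smc1a) genes in these lists, against 9.6% of all genes tested. Smc1a, with 22 and 18 counts, came closest to a call (log2 ratio 1.42, SE 0.45, adjusted exact binomial p = 0.0559). The median log2 ratios of the genes past the filter were -0.37, -0.47 and 0.21, against 0.00 over all genes tested. The replication list held 0.111% of gene counts in replicate 1 and 0.0931% in replicate 2, the regulators 0.0632% and 0.0590%, and mitosis and cohesion 0.244% in each. The replicate intervals overlapped in all 3 lists. Among the regulators the highest densities belonged to 3 other inhibitors of cyclin-dependent kinases: Cdkn2d with 26 and 10 counts (159.4 CPM per kilobase), Cdkn1a with 24 and 5 (114.3) and Cdkn1c with 32 and 7 (74.0). Not all inhibitors in that list were high: Cdkn2c had 2 and 3 counts (31.8), below Ccnd1 and Ccnd2, and Cdkn2a and Cdkn2b had 0 in both libraries. Cdkn1b, Cdkn2d and Cdkn1a thus each stood above every D-type cyclin in mean density. Cdkn1c was level with Ccnd2 (on its longest coding isoform, at 52.4, it was below). Not divided by coding length, Cdkn1a at 54.8 CPM was below Ccnd2 at 64.3. Cdkn1b (87.1), Cdkn2d (79.9) and Cdkn1c (74.6) were above it.

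In the replication list the highest densities were those of small subunits: Pole3 (115.5 CPM per kilobase, on a decay isoform of 156 coding nucleotides, and 56.7 on the longest coding isoform), Pole4 (90.7) and Rpa3 (89.9, from 21 and 1 counts). In the mitosis list they were Anapc4 (367.5 on a decay isoform of 249 coding nucleotides, and 35.8 on the longest coding isoform), Cdc26 (168.4, from 9 and 7 counts) and Ube2s (153.1, from 43 and 10). Cdc26 and Anapc4 are subunits of the anaphase-promoting complex, and Ube2s extends its ubiquitin chains. Clspn, Foxm1, E2f2, Cdkn2a and Cdkn2b had 0 counts in both libraries.

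Markers of the cell types in the tissue were read beside these values. The 6 neuronal markers held 0.628% of gene counts in replicate 1 and 0.636% in replicate 2, and all 6 passed the filter. Tubb3, with 1061 and 405 counts, was called higher in replicate 2. Its log2 ratio was 0.33 with SE 0.08 (adjusted exact binomial p = 0.00365). Of all genes tested 3.99% were called in that direction, and no marker of the other lists was called. The 9 markers of astrocytes and radial glia held 0.237% and 0.240%, and the 5 of oligodendrocyte precursors 0.0463% and 0.0482%. The 8 markers of the cerebellar granule lineage held 0.0361% (0.0303 to 0.0430) and 0.0474% (0.0366 to 0.0614). In that list Gli1 had 0 counts in both libraries and Atoh1, which defines the dividing precursors, 0 and 1, while Zic1 had 54 and 23. Erythroid markers held 0.409% and 0.385%, endothelial 0.0157% and 0.0191%, and microglial 0.0195% and 0.0191%. The replicate intervals overlapped in each of these 7 lists. Their part in the levels of the cell cycle genes was not tested.

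The phase groups also differed in the letters of their promoters, a property of the genome and not of these libraries. RefSeq promoters (250 bases before to 50 after the start, GRCm38.p6) were found for 35 of the 43 genes. The letters TTTGAA, known as the cell cycle gene homology region (CHR) that binds the DREAM and MuvB complexes, stood on either strand of 11 of 13 G2/M genes (84.6%), 1 of 18 S genes (5.56%) and 0 of 4 G1 genes, against 20.2% of all 27025 genes with a promoter. An E2F site, searched as TTTGGCGC, TTTCCCGC, TTTGCCGC or TTTCGCGC on either strand, stood in 8 of 18 S genes (44.4%), 2 of 13 G2/M genes (15.4%) and 0 of 4 G1 genes, against 2.61% of all genes. E2F and CHR matches cannot share a base, and a CCAAT match can share 1 base at its end with either. The letters CCAAT were found in 12 of 13 G2/M genes, 13 of 18 S genes and 2 of 4 G1 genes, against 41.1% of all genes. A match is a description of letters in the window, and a gene with several promoters counts once if any of them matches.

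Stretches upstream of the start site are shown for Mcm7 and Ncapd2, on which the comparison of libraries turned, and for Cdk1, whose promoter holds both motifs. All are on the minus strand, written 5' to 3' along the gene, with E2F and CHR letters in capitals.
Mcm7 (chr5:138172021-138172068): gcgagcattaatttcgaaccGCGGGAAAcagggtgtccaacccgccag
Ncapd2 (chr6:125191587-125191729): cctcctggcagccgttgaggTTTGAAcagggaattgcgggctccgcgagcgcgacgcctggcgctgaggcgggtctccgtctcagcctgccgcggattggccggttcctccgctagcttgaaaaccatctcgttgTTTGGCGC
Cdk1 (chr10:69352913-69353063): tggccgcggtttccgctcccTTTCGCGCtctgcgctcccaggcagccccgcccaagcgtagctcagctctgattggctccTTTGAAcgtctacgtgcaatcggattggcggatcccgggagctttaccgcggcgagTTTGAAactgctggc
In Mcm7 the capitals are the antisense form of TTTCCCGC. Ncapd2 has 1 CHR and 1 E2F match in the stretch, and Cdk1 has 2 CHR matches and 1 E2F match. Ncapd2 and Cdk1 are thus the 2 G2/M genes with an E2F match.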

How the data were processed

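The authors deposited 1 table of raw, whole-number counts of fragments for each transcript in each library, with transcript, coding and untranslated lengths. Trimmomatic 0.36, Bowtie2 2.2.6, SAMtools and build GRCm38.p4 are named, per the submitters' processing notes. The counting tool and the treatment of fragments that match several transcripts are not given in the sources used here. Isoforms carry overlapping counts, so column sums are not read numbers. Table columns were matched to replicates by number. The gene list, phase groups, pathway lists and promoter motifs were chosen with earlier results of these data known. CPM used effective library sizes from edgeR 4.0.16 (TMM, on genes averaging 10 or more counts). Ratios of single genes are differences of log2(CPM + 1), so those of low genes are understated, and their SE covers counting error alone. Pooled ratios use the same effective library sizes and carry no pseudocount, while shares are of raw gene counts. Densities are CPM per kilobase of coding sequence, as the mean of the libraries. The 2-sided exact binomial test (scipy 1.17.1) with Benjamini-Hochberg adjustment at 0.05 was tested on simulated data. DESeq2 1.42.0 size factors were an alternative. Named genes were all 43, with both counts given for those past the filter and the 3 densest per phase group, and the 3 densest of each pathway list. Gene names matched for 43 of 43 identifiers. RefSeq spans of 9 members overlap another protein-coding gene, and fragments at those ends cannot be assigned.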

Additional observations from a re-analysis of the deposited data

How the results depend on the processing

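No paired analysis was possible because the samples form a single group. The 12 genes past the filter became 36 with at least 1 count in each library, 0 at a mean of 50, 23 with isoforms summed, and 5 to 15 with 1 library left out. The 2 calls became 0 on the longest coding isoform and 0 on the highest-count coding isoform, where Mcm7 and Ncapd2 miss the filter. They remained Mcm7 and Ncapd2 under library totals, DESeq2 size factors, no filter, a preset coefficient of variation of 0.2 and coding genes alone. The pooled G2/M log2 ratio of 1.36 became 0.564 on the longest coding isoform, 0.555 without Ncapd2 and 0.606 on the highest-count coding isoform. The mean G1 share of 0.0263% became 0.0411% with isoforms summed. The mean S share of 0.0646% became 0.0839% of protein-coding counts, 0.0597% on the longest coding isoform, 0.0604% with isoforms summed and 0.0607% on the highest-count coding isoform. Per whole transcript length, median density was 10.7 CPM per kilobase in G1, 7.23 in S and 4.94 in G2/M. The S median was 9.82 on the longest coding isoform. With 1 library left out, medians ranged from 25.2 to 69.2 in G1, 9.55 to 11.3 in S and 4.55 to 11.6 in G2/M, and without replicate 1 G2/M stood above S. With library totals the log2 ratios of Mcm5 and Mki67 turned from 0.04 to -0.16 each, neither called. The highest-count coding isoform and the omission of Mcm7 were chosen after seeing the data. At sums of 0 to 49 counts a gene, depth limits every single-gene value.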
